A study of Mus musculus with 2 samples.

Results

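The fibroblast growth factor (FGF) signalling genes described here were the ligands Fgf5, Fgf18, Fgf20 and Fgf22 and the receptors Fgfr1, Fgfr2 and Fgfr3, taken by symbol from the gene list, 7 of the 32285 genes counted. They were followed across the epithelial cells of growing hair follicles in mouse back skin at postnatal day 1 (P1), profiled by single-cell RNA sequencing as a pair of libraries, 1 for each of the labels PADI4 WT and PADI4 cKO. The cKO mice joined the K14-Cre;tdTomato reporter line to Padi4 fl/fl alleles, so that Cre driven by the keratin 14 promoter removes Padi4, which encodes an enzyme that turns arginine in proteins into citrulline, in keratinocytes and their descendants. Cells of both libraries were sorted for tdTomato and against DAPI from the dermal fraction of the skin, so the sorted cells of both carried the Cre-dependent reporter. The Padi4 alleles of the PADI4 WT mice and the number of mice behind each library are not given in the sources used here. With 1 library for each genotype no test between genotypes was possible, and all intervals below are 95% intervals that cover counting error only.

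Of the droplets, 8071 and 7392 cells (PADI4 WT and PADI4 cKO, the order used for every pair of values below) passed the filters, and 7995 and 7356 of them lay in epithelial clusters, with a median of 14683 and 16205.5 UMIs (unique molecular identifiers, 1 for each captured mRNA molecule). Padi4 itself had 98 and 92 UMIs, a log2 ratio of −0.12 (−0.54 to 0.31) for PADI4 cKO over PADI4 WT. The counted 3′ ends do not show whether the floxed exons were present, so this count does not check the genotype. The libraries also differed in sex. In the PADI4 WT library 26.0% of epithelial cells had UMIs of Xist but of no Y-linked gene and 62.4% the reverse, whereas in the library labelled PADI4 cKO 98.3% had Xist alone and 0 had Y-linked UMIs alone. Genotype and sex therefore cannot be told apart in a whole-library comparison, and values within Xist-only cells, 2079 and 7234 cells, are given beside the ratios of the members and of the named pathway genes. The libraries shared 17 barcodes of 2000 or more UMIs, 0.194% and 0.216% of such barcodes.

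FGFs are secreted ligands that bind receptor tyrosine kinases together with heparan sulfate, and active receptors signal through the adaptor Frs2 and the MAP kinase pathway to genes such as Etv4 and Etv5 and to inhibitors of the Sprouty, Spred and Dusp families that dampen the same pathway. In skin, Fgf5 is known as the signal that ends hair growth, since its loss gives long hair, Fgf20 as a ligand of the hair placode that acts on the dermal condensate, and Fgf18 as a ligand of the resting follicle. Fgfr2, in its epithelial splice form, receives Fgf7 and Fgf10 from the dermis. UMIs read at the 3′ end do not separate the splice forms of the receptors.

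On the GRCm38 annotation Fgf5 lies on the plus strand at chr5:98254184-98277030, Fgf18 on the minus strand at chr11:33117430-33147400, Fgf20 on the minus strand at chr8:40279166-40308331 and Fgf22 on the plus strand at chr10:79755076-79758596. Fgfr1 lies on the plus strand at chr8:25513654-25575718, Fgfr2 on the minus strand at chr7:130162451-133123350 and Fgfr3 on the plus strand at chr5:33721674-33737068. The annotated span of Fgfr2 is 2960900 bases and covers 22 other genes of the same strand, so that if intronic reads were counted its UMIs could be shared with them, and Fgfr1 is overlapped by Gm16159, Fgf20 by Micu3 and Fgf22 by Rnf126 on the opposite strand.

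RefSeq promoters (GRCm38.p6) were on hand for 5 of the 7 genes, not for Fgf20 or Fgfr1. They are shown for Fgf5, which had most UMIs of the ligand members, most of them in 1 cluster, and for Fgfr2 and Fgfr3, receptors found in most clusters. Each is given as the 250 bases before a RefSeq start on the strand of the gene, 5′ to 3′. Capitals mark the letters of a GC box (GGGCGG) or an E-box (CAGCTG or CACGTG) on either strand.
Fgf5, chr5:98253934-98254183, plus strand: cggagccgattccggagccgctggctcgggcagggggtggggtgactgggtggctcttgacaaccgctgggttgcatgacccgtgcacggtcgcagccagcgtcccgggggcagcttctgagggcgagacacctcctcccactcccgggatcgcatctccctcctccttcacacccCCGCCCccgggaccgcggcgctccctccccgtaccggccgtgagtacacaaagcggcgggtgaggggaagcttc
Fgfr2, chr7:130266809-130267058, minus strand: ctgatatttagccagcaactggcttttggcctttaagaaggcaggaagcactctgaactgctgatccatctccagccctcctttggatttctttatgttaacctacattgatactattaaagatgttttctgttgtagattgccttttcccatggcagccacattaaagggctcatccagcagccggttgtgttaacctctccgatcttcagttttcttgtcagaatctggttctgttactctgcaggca
Fgfr3, chr5:33721474-33721723, plus strand: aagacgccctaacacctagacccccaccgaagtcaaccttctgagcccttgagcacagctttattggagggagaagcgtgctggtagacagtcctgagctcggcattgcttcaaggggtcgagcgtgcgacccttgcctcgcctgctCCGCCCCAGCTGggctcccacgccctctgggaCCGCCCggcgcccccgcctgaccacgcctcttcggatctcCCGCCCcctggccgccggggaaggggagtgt
The Fgf5 window was 70.8% G or C and held 1 GC box, 74 to 69 bases before the start. The Fgfr3 window shown was 66.8% G or C and held 3 GC boxes and 1 E-box, the E-box directly after the first GC box. A second Fgfr3 window, chr5:33722056-33722305, was 72.8% G or C and held 2 GC boxes and no E-box. The Fgfr2 window stood apart with 44.0% G or C, against a median of 52.4% over 32851 windows, and held none of the motifs searched. It lies before a RefSeq start inside the longer GENCODE span of Fgfr2 given above, far from the upstream end of that span, so the letters describe this start alone. Of all windows 32.7% held a GC box, 18.2% an E-box, 14.8% a TCF/LEF motif (CTTTGAT or CTTTGAA or CTTTGTT or CTTTGTA), 12.4% a TATA box (TATAAA), 6.91% an ETS motif (CCGGAAG), 4.46% an AP-1 motif (TGACTCA) and 1.47% a CArG box. The last 5 motifs were in none of the 6 windows of the FGF genes. These matches describe letters only, and no measurement of these promoters was made here.

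Cells were clustered without the Fgf and Fgfr genes into 26 clusters, of which 14 could be named from markers, and comparisons were made over the 20 epithelial clusters that held 50 or more cells of both libraries. Names are given as lower proximal cup (LPC), the progenitors at the base of the follicle, germinative layer (GL), outer root sheath (ORS), inner root sheath (IRS), cortex (Cx) and sebaceous gland (SG), each "-like", and unnamed clusters are called by 2 leading genes. Levels are summed UMIs per 1000000 UMIs of the group (CPM). One cluster with leading genes Gm36101 and Sfrp1 is left out of the orders below, because 23.9% and 94.7% of its cells were scored as doublets and their median UMIs were 5893 and 32387.

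Fgf5 was the most localized of the 7 genes. Over all epithelial cells it had 357 and 212 UMIs, 2.81 CPM (2.52 to 3.11) and 1.64 CPM (1.42 to 1.87), in 2.35% and 1.74% of cells. A single small cluster led by Tagln and Acta2, genes of contractile cells, held 72.8% and 79.2% of these UMIs with 3.91% and 3.38% of the epithelial cells. Its Fgf5 level was 50.5 CPM (44.6 to 57.0) in the PADI4 WT library and 36.0 CPM (30.8 to 41.9) in the library labelled PADI4 cKO, and 39.0% of 313 and 36.5% of 249 cells had an Fgf5 UMI. After each cell was thinned to 2000 UMIs the shares were 9.58% and 6.43%. The next cluster, led by Spon1 and Krt8, had 19.1 CPM (13.2 to 26.7) and 10.2 CPM (4.69 to 19.5), a lower level whose interval did not reach that of the first cluster in either library. The cluster led by Pi15 and Cps1 followed with 3.24 and 2.74 CPM, and every other cluster was at 1.64 CPM or less. In 6 clusters no Fgf5 UMI was found in either library, among them the IRS-like cells, 0 of 704 and 0 of 555 cells, which allows shares of cells with an Fgf5 UMI of up to 0.426% and 0.541%, and sets no limit on cells that express it below detection, at a median depth of 15371.5 and 16410 UMIs. Empty droplets, which hold free RNA, had 1.80 and 1.30 CPM of Fgf5, so free RNA could account for at most 0.442% and 0.275% of the Fgf5 UMIs of the Tagln/Acta2 cluster.

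The cluster with most Fgf5 had keratins beside genes of contractile cells. It had 1544 and 1738 CPM of Krt15, a keratin of basal and ORS cells, 1205 and 1262 CPM of Krt5 and 562 and 543 CPM of Krt14, beside 2399 and 2407 CPM of Tagln, 435 and 264 CPM of Acta2 and 591 and 581 CPM of Myl9. Tagln and Acta2 are also on the list of smooth muscle and pericyte markers, whose other members were at or near 0 there, with 0 and 1 UMI of Pdgfrb, 0 and 1 of Des, 1 and 0 of Rgs5 and 4 and 5 of Myh11. Few doublets were scored in it, 0.639% and 2.01% of cells. Only 2 ORS markers, Krt15 and Tbx1, and 2 Merkel cell markers, Krt8 and Krt18, passed the naming limits, so it was given no class name. A non-epithelial cluster led by collagen genes, 50 and 26 cells, had 0 and 3 Fgf5 UMIs.

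**Figure D1:**
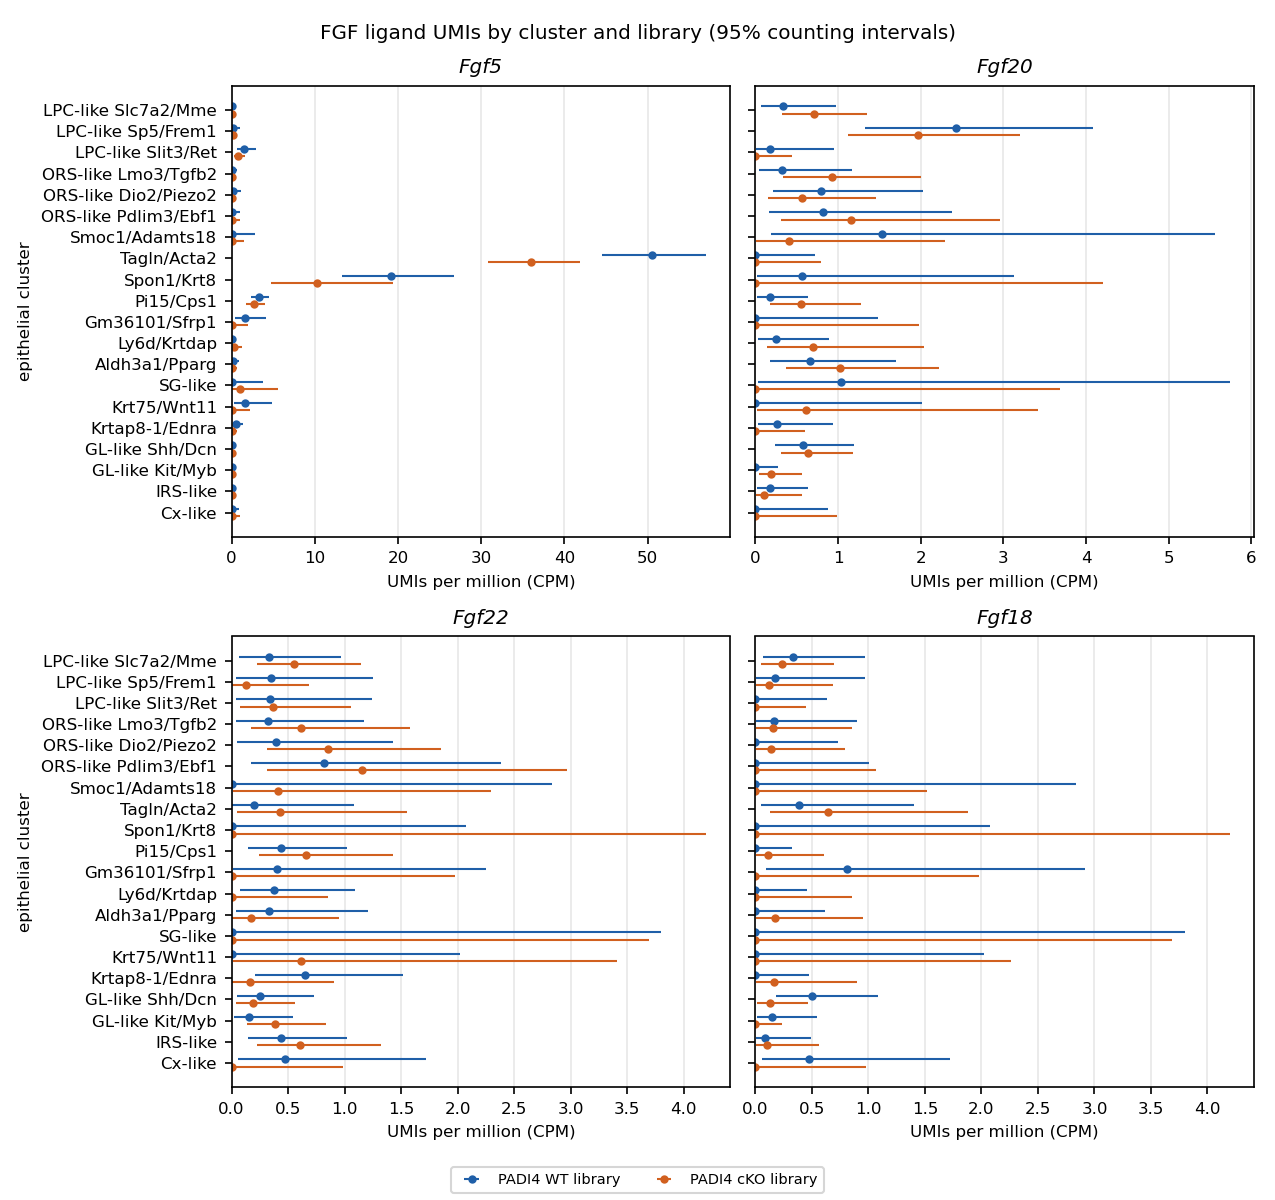
Level of the 4 FGF ligands, in CPM on linear axes, in 20 epithelial clusters. Points are the summed level of a cluster in the PADI4 WT library (blue) and the PADI4 cKO library (orange) and lines are exact Poisson 95% intervals. Fgf5 reached 50.5 and 36.0 CPM in the Tagln/Acta2 cluster and 3.24 CPM or less outside it and the Spon1/Krt8 cluster, whereas Fgf20, which reached 2.43 and 1.97 CPM, Fgf22 and Fgf18 showed no cluster whose interval stood clear of the others.

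Within the Tagln/Acta2 cluster Fgf5 was higher in cells called G1 than in cells called G2M, phases that rest on scores of marker UMIs alone. In the PADI4 WT library it was at 66.5 CPM (56.1 to 78.2) in G1, 40.3 (31.3 to 51.2) in S and 36.8 (27.1 to 48.8) in G2M cells. In the library labelled PADI4 cKO it was at 53.4 CPM (43.1 to 65.3) in G1, 28.4 (21.4 to 37.1) in S and 19.9 (12.1 to 30.7) in G2M cells. The G1 level lay above the intervals of both other phases in each library, while S and G2M overlapped. The log2 ratio of G1 over G2M was 0.84 and 1.40. With Pcna, Mcm5 and Nasp left out of the phase lists, G1 still stood above G2M in both libraries, but in the library labelled PADI4 cKO the G1 level of 48.2 CPM (37.6 to 60.9) overlapped the S level of 36.7 CPM (29.2 to 45.4), which then stood above G2M at 15.8 CPM (8.83 to 26.0).

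Fgf20 was sparse, with 52 and 69 UMIs over all epithelial cells, 0.409 CPM (0.305 to 0.536) and 0.533 CPM (0.415 to 0.675). Its highest level was in the LPC-like cells led by Sp5 and Frem1, 2.43 CPM (1.33 to 4.08) from 14 UMIs and 1.97 CPM (1.12 to 3.20) from 16 UMIs. The second level by the mean of both libraries, 0.815 and 1.16 CPM in the ORS-like Pdlim3/Ebf1 cells, had intervals that overlapped with it in both libraries, so the order of clusters, the first place included, is not resolved. Within the PADI4 WT library the Sp5/Frem1 level was 7.40 CPM from 8 UMIs in Xist-only cells and 1.18 CPM from 4 UMIs in cells with Y-linked UMIs only. Fgf20 had no UMI in the Tagln/Acta2 cluster in either library. No cell of either library had UMIs of both Fgf5 and Fgf20, with 188 and 128 Fgf5-positive and 46 and 65 Fgf20-positive cells. Fgf5 and Fgf22, with 46 and 52 Fgf22-positive cells, shared 1 and 0 cells. Positive cells were too few for an overlap of 0 to be read as exclusion.

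Fgf22 and Fgf18 were near the limit of detection. Fgf22 had 46 and 52 UMIs in all, each in a cell of its own, and was highest in the ORS-like Pdlim3/Ebf1 cells with 0.815 CPM (0.168 to 2.38) and 1.16 CPM (0.315 to 2.96). Fgf18 had 21 and 15 UMIs, with 0.389 and 0.643 CPM in the Tagln/Acta2 cells. No order of clusters could be drawn at this depth for either gene.

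Among all 22 ligands listed, 6 had at least 100 UMIs over both libraries and Fgf3, Fgf4 and Fgf6 had none. Fgf2, a ligand with broad receptor use, had most, 2748 and 3199 UMIs, and was highest in the LPC-like Slit3/Ret cells with 65.4 and 71.5 CPM and in the Tagln/Acta2 cells with 65.1 and 54.9 CPM. Fgf1 was highest in the ORS-like Pdlim3/Ebf1 cells with 41.3 and 42.6 CPM, and Fgf13, an intracellular family member that is not a secreted ligand, in the Aldh3a1/Pparg cells with 8.83 and 8.70 CPM. Between the libraries 1 ligand pair was above 0.5 and 1 below −0.5 of 15, both of them Fgf2, at 0.54 (0.37 to 0.71) in the GL-like Kit/Myb cells and −0.61 (−1.17 to −0.05) in the ORS-like Dio2/Piezo2 cells. Of all pairs of a gene and a cluster, 2.34% were above and 2.65% below. In Xist-only cells Fgf2 was at 0.52 (0.26 to 0.80) in the GL-like Kit/Myb cells and under 100 UMIs in the Dio2/Piezo2 cells.

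The receptors were found far more widely than the ligands, and each had a pattern of its own. Over all epithelial cells 64.3% and 70.3% had an Fgfr1 UMI, 96.5% and 97.9% an Fgfr2 UMI and 44.3% and 48.4% an Fgfr3 UMI. After thinning to 2000 UMIs these shares were 24.1% and 26.1% for Fgfr1, 59.5% and 61.7% for Fgfr2 and 9.23% and 8.58% for Fgfr3. Fgfr4 had 14 and 6 UMIs. The order of the libraries turned for Fgfr3 after thinning, so no order is drawn from its shares.

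Fgfr1 was highest in some of the clusters with markers of the outer sheath and the upper follicle. The first was the cluster led by Smoc1 and Adamts18, which had 5 markers of the upper follicle and 5 of the ORS, with 720 CPM (674 to 767) and 707 CPM (674 to 742). The ORS-like Dio2/Piezo2 cells followed with 430 and 452 CPM, a level separate from the first in both libraries. The other ORS-like clusters were at 295 to 381 CPM. The LPC-like clusters were lower, at 93.9 to 148 CPM, and the GL-like, IRS-like and Krt75/Wnt11 cells were among the lowest, at 18.4 to 43.4 CPM. The Krt75/Wnt11 cells also had 5 markers of the upper follicle, so high Fgfr1 did not go with these markers in every cluster. The last clusters of this order overlapped.

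Fgfr2 was high in every cluster, with a Pearson correlation of −0.06 with Fgfr1 over 40 points of cluster and library. It was highest in the cluster led by Krtap8-1 and Ednra, with 860 CPM (839 to 881) and 958 CPM (933 to 982), clear of the Cx-like cells with 649 and 757 CPM. This cluster had 6 GL and 5 medulla markers and was given no class name. The GL-like Shh/Dcn cells had 613 and 635 CPM and the LPC-like Sp5/Frem1 cells 599 and 620 CPM, with overlapping intervals. The Tagln/Acta2 cells, the source of most Fgf5, were second lowest with 256 and 271 CPM, separate from the Krt75/Wnt11 cells above them, with 343 and 347 CPM, and from the SG-like cells below them, with 203 and 191 CPM.

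Fgfr3, the receptor with fewest UMIs of the 3, was highest in the Cx-like cells, 82.2 CPM (73.8 to 91.4) and 105 CPM (94.5 to 115), and in the LPC-like Slit3/Ret cells, 98.7 CPM (90.8 to 107) and 84.6 CPM (78.4 to 91.1). The libraries disagreed on which of these came first. The IRS-like cells with 78.8 and 80.3 CPM, the Krt75/Wnt11 cells with 78.9 and 75.4 CPM and the Tagln/Acta2 cells with 79.1 and 70.1 CPM could not be ordered. The lowest levels, 22.5 CPM or less, were in the Ly6d/Krtdap, Aldh3a1/Pparg and SG-like cells. Empty droplets had 56.4 and 49.5 CPM of Fgfr3, about as much as the epithelial cells with 49.2 and 49.8 CPM, and free RNA could account for at most 14.2% and 7.61% of its UMIs.

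**Figure D2:**
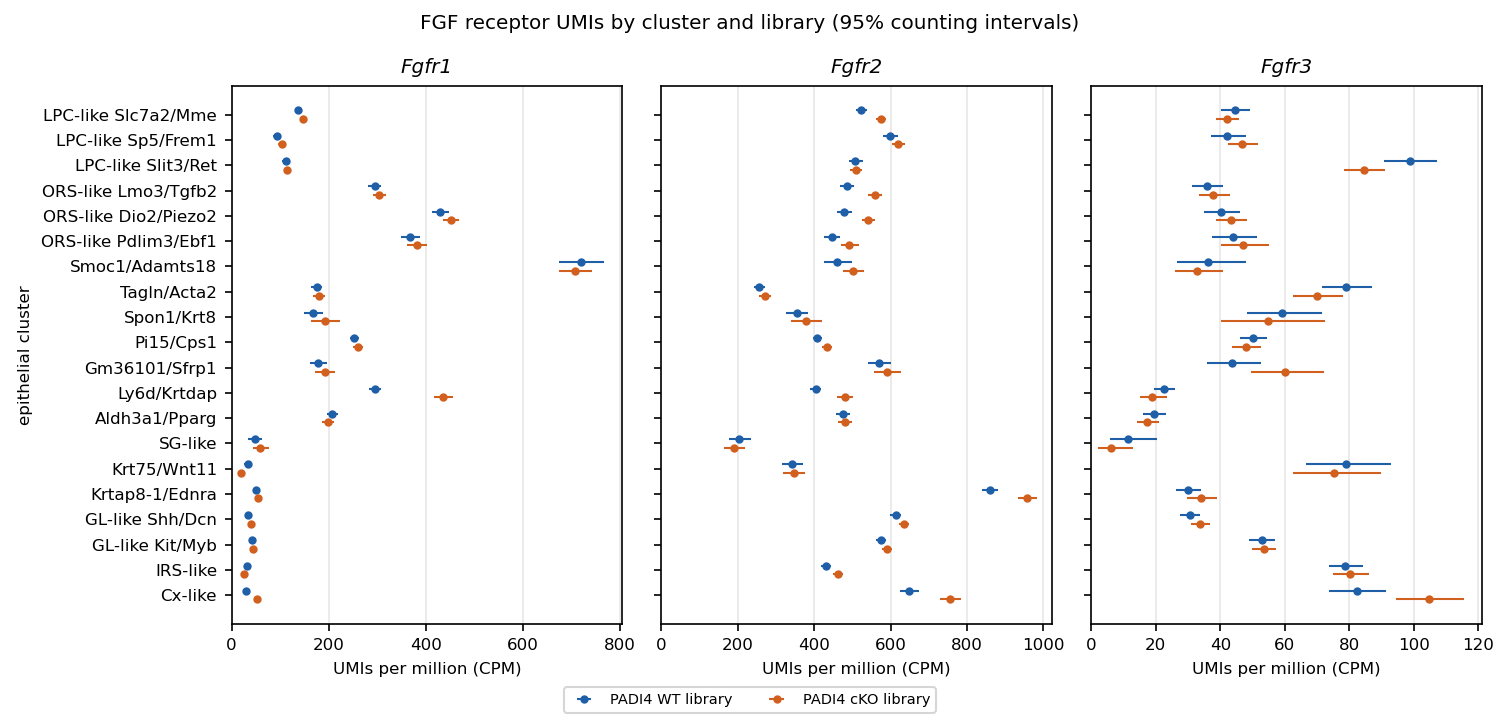
Level of the 3 FGF receptors, in CPM on linear axes with a scale for each gene, in the same 20 epithelial clusters. Points are the PADI4 WT library (blue) and the PADI4 cKO library (orange) and lines exact Poisson 95% intervals. Fgfr1 peaked at 720 and 707 CPM in the Smoc1/Adamts18 cells, Fgfr2 at 860 and 958 CPM in the Krtap8-1/Ednra cells, and Fgfr3 was spread over the Cx-like, LPC-like Slit3/Ret, IRS-like, Krt75/Wnt11 and Tagln/Acta2 cells.

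The make-up of receptor UMIs shifted between clusters accordingly. Fgfr1 made up 19065 of the 90796 and 20838 of the 99184 receptor UMIs in all epithelial cells, but 59.2% and 56.9% in the Smoc1/Adamts18 cells and 34.3% and 34.6% in the Tagln/Acta2 cells. In the GL-like Shh/Dcn cells Fgfr1 made up 5.02% and 5.59%, with 90.5% and 89.6% from Fgfr2. Fgfr3 made up 6.90% and 6.50% in all, and most in the Krt75/Wnt11 cells, 17.3% and 17.1%. These shares compare clusters for 1 gene and not the receptors with each other, since UMIs were not scaled for the length or introns of the genes.

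Classes gated from marker UMIs of single cells, in place of clusters, held 6670 and 6281 cells. Of these classes Fgfr1 was highest in the ORS class, 308 and 350 CPM, against 55.8 and 59.4 CPM in the GL class. Fgfr2 was highest in the GL class, 611 and 638 CPM. No Cx or medulla class was among them, so the first clusters of the Fgfr2 order could not be compared in this way. Fgf5 was at 5.22 and 3.41 CPM in the ORS class and at 3.43 and 1.64 CPM in the LPC class. Fgf20 was at 1.89 and 1.39 CPM in the LPC class, and at 1.05 and 2.35 CPM from 2 UMIs in each library in the upper follicle class, so that its first place changed with the library.

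Between the libraries, Fgf5 was the one member past a log2 ratio of 0.5 over all epithelial cells, of 5 members with at least 100 UMIs over both libraries. It was lower in the library labelled PADI4 cKO, at −0.78 (−1.03 to −0.53). Of all 14900 genes compared, 3.58% were below −0.5 and 1.58% above 0.5. In the Tagln/Acta2 cluster itself the log2 ratio was −0.49 (−0.78 to −0.20), not past 0.5, and the share of cells in the 2 clusters with most Fgf5 was also lower in the library labelled PADI4 cKO, 3.38% against 3.91% for Tagln/Acta2 and 56 of 7356 against 120 of 7995 cells for Spon1/Krt8. With clusters weighted by their share in the PADI4 WT library the ratio over all cells was −0.55, an alternative chosen after seeing the data. How far the shares of cells and the level within a cluster each enter the ratio over all cells was not tested. In Xist-only cells the ratio was −0.65 (−1.02 to −0.25) over all epithelial cells and −0.34 (−0.75 to 0.11) in the cluster. Within the PADI4 WT library Xist-only cells of the cluster had 45.3 CPM (35.0 to 57.7) and cells with Y-linked UMIs only 53.9 CPM (46.2 to 62.6), which overlap.

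The receptors differed little over all epithelial cells. The log2 ratio was 0.10 (0.07 to 0.13) for Fgfr1, 0.11 (0.10 to 0.13) for Fgfr2 and 0.02 (−0.03 to 0.07) for Fgfr3, and Fgf20 was at 0.38 (−0.16 to 0.93). In Xist-only cells the ratios were 0.16 (0.12 to 0.21) for Fgfr1, 0.13 (0.10 to 0.15) for Fgfr2, −0.12 (−0.20 to −0.04) for Fgfr3 and −0.05 (−0.80 to 0.84) for Fgf20, so the sign for Fgfr3 and Fgf20 differed from that over all cells, where both intervals included 0. Over 59 pairs of a member and a cluster with at least 100 UMIs, 2 were above 0.5 and 0 below −0.5, that is 3.39% above. Of the 169102 such pairs over all genes 2.34% were above and 2.65% below. At a minimum of 500 UMIs 1 member pair was past 0.5. In Xist-only cells 5 of 55 member pairs were above 0.5 and 0 below −0.5, that is 9.09% above, where 5.11% of all pairs were above and 3.15% below. These 5 were Fgfr1 in the Ly6d/Krtdap, Cx-like and LPC-like Sp5/Frem1 cells and Fgfr3 in the Aldh3a1/Pparg and Gm36101/Sfrp1 cells, where the Fgfr3 intervals included 0. Over all cells both pairs were Fgfr1. In the Ly6d/Krtdap cells it was at 296 and 436 CPM, a log2 ratio of 0.56 (0.47 to 0.65), where 4.12% of genes were above 0.5, and in Xist-only cells at 0.55 (0.36 to 0.74).

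This cluster split into 3 parts at a finer resolution, and the parts with more Fgfr1 held more of the cells in the library labelled PADI4 cKO. The parts had 341 and 63, 97 and 144, and 84 and 68 cells, with Fgfr1 at 211 and 290, 475 and 551, and 384 and 386 CPM. In the Cx-like cells Fgfr1 was at 29.1 and 52.4 CPM, a log2 ratio of 0.85 (0.52 to 1.19), where 3.15% of genes were above 0.5. Doublets were 6.44% and 11.5% of these cells, and without them the ratio was 0.11 (−0.38 to 0.60). In Xist-only cells it was 2.04 (1.28 to 3.02), from 13 and 191 UMIs in 72 and 206 cells. The Cx-like difference was thus past 0.5 or not depending on which cells were left out.

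**Figure D3:**
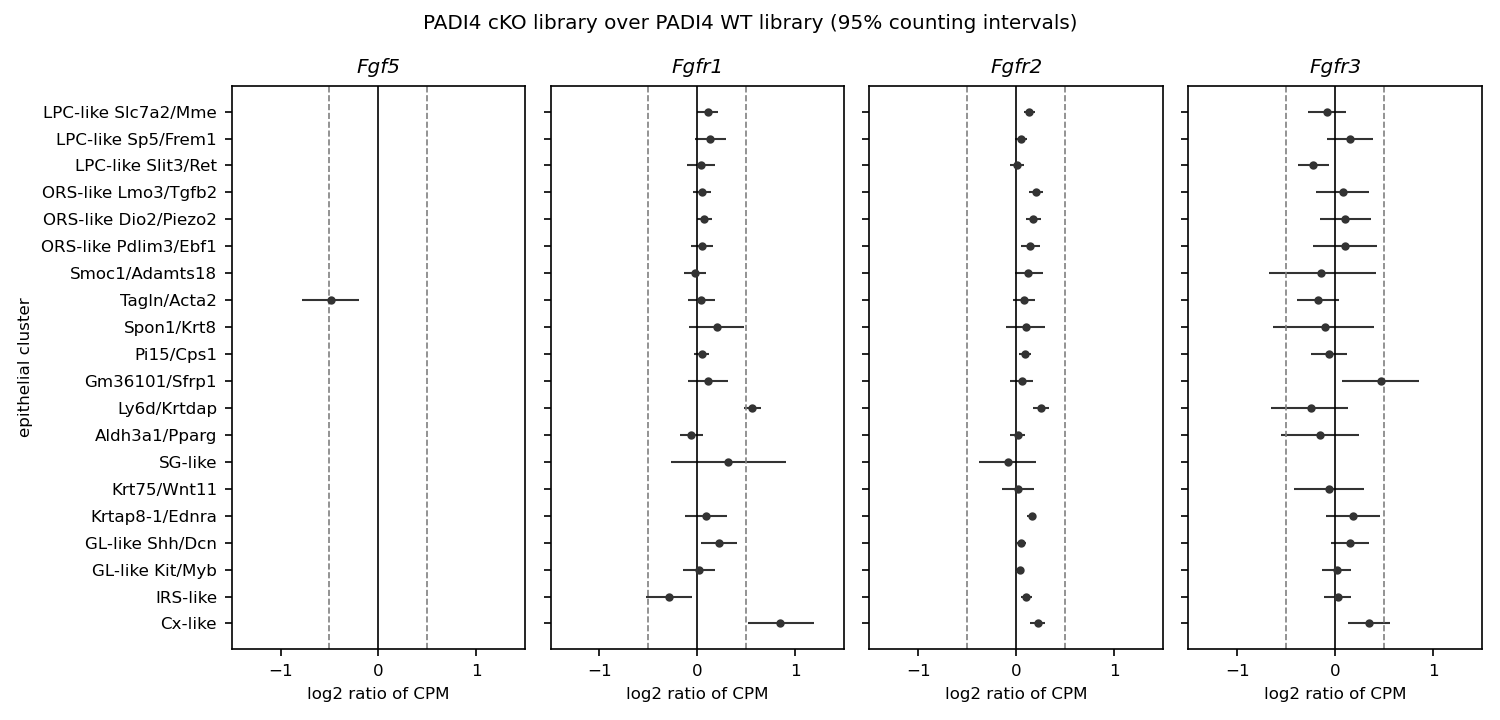
Log2 ratio of the level in the PADI4 cKO library over the PADI4 WT library for the members and clusters with at least 100 UMIs. Points are ratios of CPM, lines exact conditional binomial 95% intervals for counting error and dashed lines mark 0.5 in each direction. Fgf5 in the Tagln/Acta2 cluster lay at −0.49 and Fgfr1 passed 0.5 in the Ly6d/Krtdap and Cx-like clusters, while all Fgfr2 and Fgfr3 ratios lay inside the dashed lines.

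Most cells with a ligand UMI also had receptor UMIs. Of the Fgf5-positive epithelial cells, 87.2% and 90.6% had Fgfr1, 94.7% and 93.8% Fgfr2 and 55.3% and 59.4% Fgfr3, against 63.8% and 69.9%, 96.6% and 98.0%, and 44.0% and 48.2% of the other cells. The Fgf5-positive cells were deeper, with a median of 16718 against 14645 and 17176 against 16187.5 UMIs. Thinned to 2000 UMIs, Fgfr1 was in 26.7% of 45 and 28.6% of 21 Fgf5-positive cells against 24.1% and 26.1% of the others, so no difference in its share is read at equal depth. Within the Tagln/Acta2 cluster Fgfr2 was lower in the 122 and 91 cells with an Fgf5 UMI than in the 191 and 158 cells without, 225 against 277 CPM in the PADI4 WT library and 242 against 289 CPM in the library labelled PADI4 cKO. The intervals did not overlap in either library. Fgfr1 was at 187 against 168 CPM and 191 against 174 CPM in the same order, with overlapping intervals. On counts thinned to 2000 UMIs, with 30 and 16 positive cells, the Fgfr2 intervals overlapped in both libraries and the order turned in the library labelled PADI4 cKO, so this contrast is not resolved at equal depth. Fgf20-positive cells had Fgfr2 in 46 of 46 and 63 of 65 cells.

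Of the receptors and coreceptors listed, Fgfrl1, a receptor without a kinase domain, had 415 UMIs over both libraries and was at 1.89 and 1.34 CPM, a log2 ratio of −0.49 (−0.78 to −0.21), and of −0.43 (−0.87 to 0.04) in Xist-only cells. Of the 19 genes for FGF binding and heparan sulfate, those with most UMIs were Ext1, which builds heparan sulfate chains, Sdc4 and Gpc4, which carry them, and Fgfbp1, a secreted FGF carrier. Ext1 and Sdc4 were highest in the Tagln/Acta2 cells, with 1425 and 1644 CPM and 926 and 808 CPM. Fgfbp1 was at 600 and 558 CPM there and highest in the SG-like cells. The list had 8 pairs above and 9 below of 276 pairs, 2.90% and 3.26%, close to the 2.34% and 2.65% over all genes. Gpc3, which carries heparan sulfate, was above 0.5 in 4 clusters and below −0.5 in 1 of 19, and in Xist-only cells above in 3 and below in 0 of 17.

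No adaptor passed 0.5 between the libraries over all cells of a cluster. Frs2, Gab1, Grb2 and Ptpn11, which link the receptors to the MAP kinase pathway, had most UMIs of the 8 adaptor genes, with 0 of 133 pairs past it in either direction. In Xist-only cells 6 of 121 pairs were above 0.5 and 1 below −0.5, mostly Gab1. These are 4.96% and 0.826%, where 5.11% of all pairs were above and 3.15% below. At a minimum of 50 UMIs 1 pair was past it. Frs2 was highest in the Cx-like cells and Gab1 in the Krt75/Wnt11 cells, at 197 and 223 CPM as the mean of both libraries.

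Some genes downstream of FGF signalling were highest in the Fgf5-rich cluster and others were not. The feedback list holds Flrt2 and its relative Flrt3 beside the inhibitors. Of its genes with at least 100 UMIs, 4 of 12 were first in the Tagln/Acta2 cluster in both libraries, Flrt2 among them. Of the response genes 2 of 7 were first there, where 3.86% of all 14900 genes were. Of the genes with most UMIs, Spred2, a Ras pathway inhibitor, was 10th and 17th of 19 clusters there with 145 and 134 CPM against 147 and 148 CPM over all epithelial cells, and Flrt3, a relative of Flrt2, was 3rd and 4th with 136 and 120 CPM. The cyclin gene Ccnd1, with most UMIs of the response list, was 10th and 11th with 449 and 458 CPM against 503 and 546 CPM, and Spry2 and Myc were 12th or lower in both libraries. Dusp6, a phosphatase of ERK, was at 226 and 259 CPM there against 40.7 and 40.3 CPM over all epithelial cells. Flrt2, a membrane protein that binds FGF receptors, was at 1076 and 997 CPM against 106 and 106 CPM. The Ras pathway inhibitor Spred1 was at 239 and 235 CPM against 112 and 114 CPM, a smaller excess.

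The transcription factors Etv4 and Etv5 followed the same order, with 141 and 166 CPM against 52.2 and 51.6 CPM for Etv4 and 51.1 and 58.1 CPM against 16.4 and 15.7 CPM for Etv5. The Etv4 intervals overlapped those of the Spon1/Krt8 cells in both libraries and of the Pi15/Cps1 cells in the PADI4 WT library. Spry1, an inhibitor of receptor tyrosine kinase signalling, was at 45.1 and 61.3 CPM against 16.4 and 17.4 CPM. These genes are not specific to FGF among receptor tyrosine kinases. Egr1 and Fos, early genes of the MAP kinase pathway and of stress during cell isolation, did not follow this order. Both were highest in the PADI4 WT library in the Spon1/Krt8 cells, and Fos was 16th and 18th of 19 in the Tagln/Acta2 cells with 84.5 and 106 CPM. Egr1 was 5th and 6th there, with 295 and 350 CPM against 193 and 233 CPM over all epithelial cells. Dusp6, Etv5 and Spry1 are named because they were first in this cluster and were chosen after their values were seen.

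**Figure D4:**
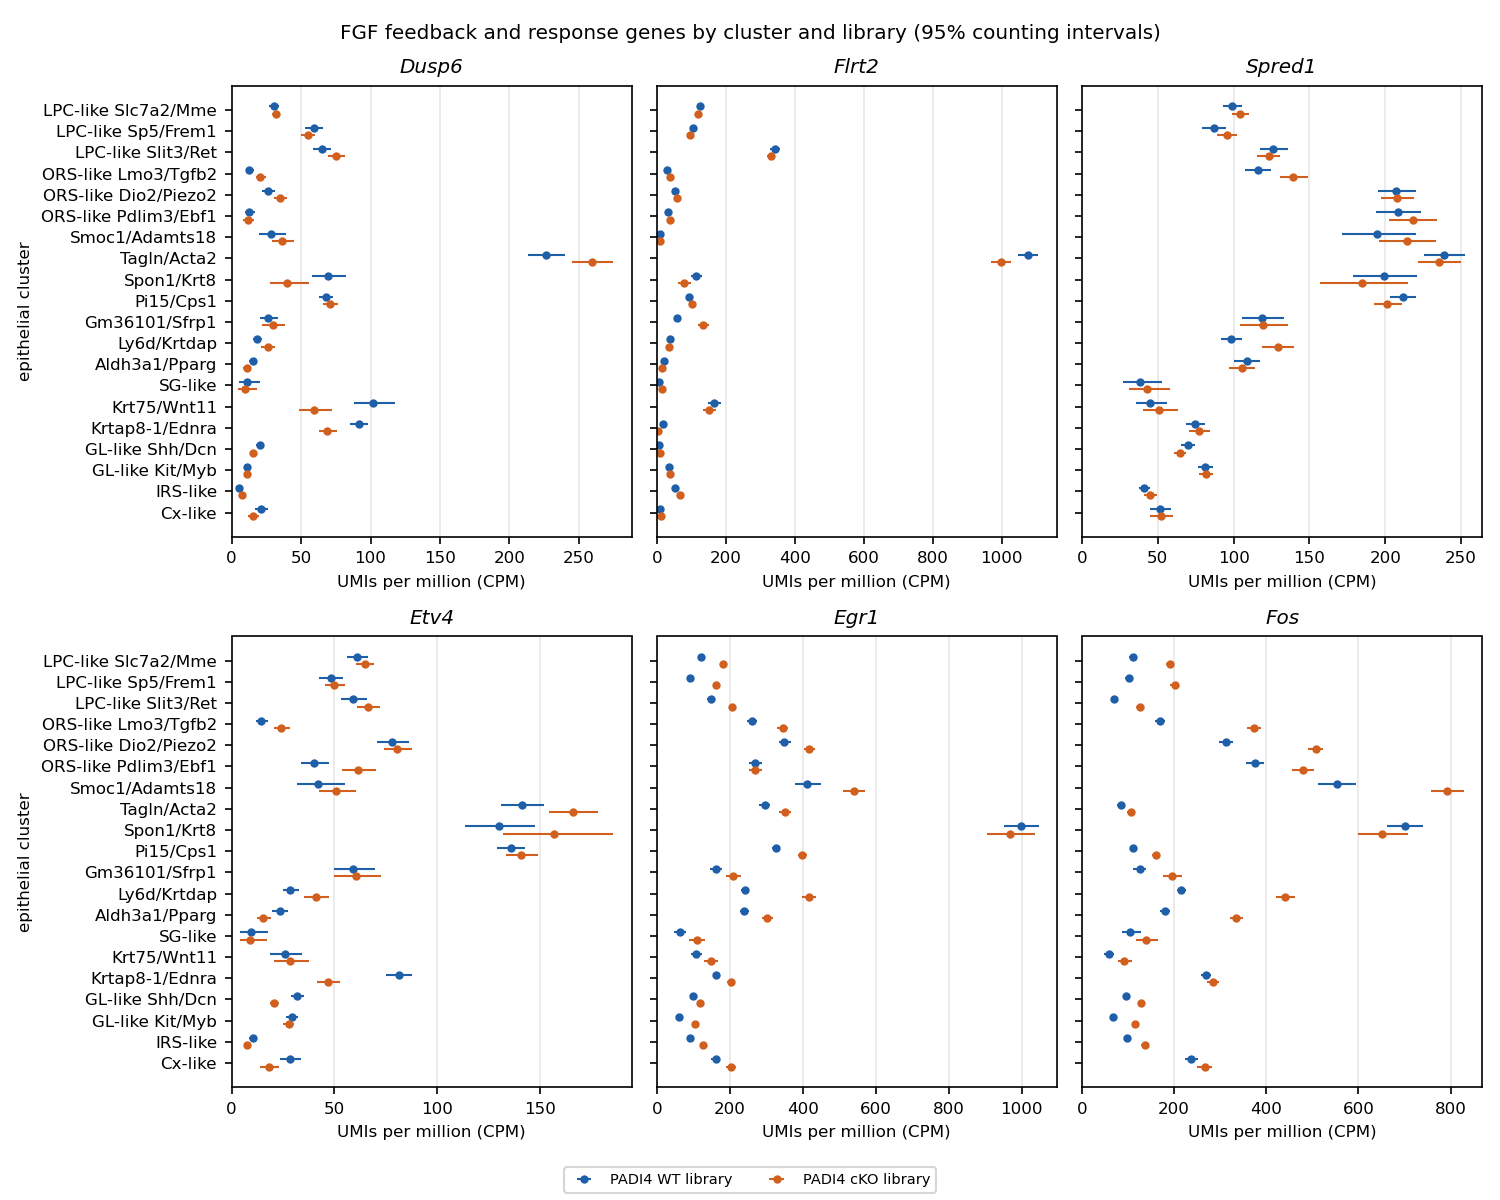
Level of 4 genes of the feedback and response lists (Dusp6, Flrt2, Spred1, Etv4) and of the early genes Egr1 and Fos, in CPM on linear axes, in 20 epithelial clusters. Points are the PADI4 WT library (blue) and the PADI4 cKO library (orange) and lines exact Poisson 95% intervals. Dusp6 and Flrt2 stood out in the Tagln/Acta2 cells, at 226 and 259 CPM and 1076 and 997 CPM, whereas Fos was higher in the library labelled PADI4 cKO in most clusters.

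Within the Tagln/Acta2 cluster, cells with an Fgf5 UMI had more Spred1, 274 against 216 CPM and 277 against 211 CPM, than cells without. Dusp6 was at 246 against 214 CPM in the PADI4 WT library, with overlapping intervals, and at 314 against 227 CPM in the library labelled PADI4 cKO, without overlap. Of the 19 feedback and response genes compared, Spred1 and Flrt2 were higher in Fgf5-positive cells with intervals apart in both libraries, and Spry1, Dusp6, Etv4 and Etv5 in 1 library. Fos was lower in them, at 71.4 against 93.1 CPM with overlapping intervals and at 77.1 against 123 CPM without overlap. The other 12 genes, among them Spry2, Il17rd, Egr1 and Ccnd1, overlapped in both libraries. Median depth was close in both kinds of cell, 15572 against 15803 and 16744 against 17321 UMIs. The 19 genes were compared on full counts alone, and phase was not held equal. The share of all genes with intervals apart in this split was not computed. No excess over other genes is therefore read from these counts. The Fgfr2 contrast above was also apart in both libraries on full counts and was not resolved on thinned counts.

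Between the libraries the feedback list split, with 9 pairs above and 10 below of 139, 6.47% and 7.19%. Of all pairs of a gene and a cluster, 2.34% were above and 2.65% below, and in Xist-only cells 5.11% and 3.15%. Il17rd, which blocks FGF signalling at the membrane, was below −0.5 in 3 of 13 clusters and above in 0, whereas in Xist-only cells it was below in 0 and above in 1 of 8. The response list had 22 pairs above and 7 below of 101, 21.8% and 6.93%. Fos was above 0.5 in 12 of 20 clusters and Egr1 in 6 of 20, whereas Etv4 was above in 3 and below in 4 of 18. In Xist-only cells Fos was above in 10 and Egr1 in 6 of 20 clusters, and Etv4 above in 2 and below in 0 of 16. Over all epithelial cells Fos was at 167 and 229 CPM and Egr1 at 193 and 233 CPM, log2 ratios of 0.46 (0.43 to 0.48) and 0.27 (0.24 to 0.29), and of 0.49 (0.45 to 0.54) and 0.32 (0.27 to 0.36) in Xist-only cells. The part of cell isolation in the levels of Fos and Egr1 was not tested. The median log2 ratio over all epithelial cells was 0.10 for the response list and 0.05 for the feedback list, against −0.01 over all genes.

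Fgfr1 and Fgfr2 also differed between cells called in different phases, Fgfr1 over pooled clusters and Fgfr2 within 1 cluster. Fgfr1 was at 232 and 299 CPM in G1 and at 109 and 83.8 CPM in G2M cells over all epithelial cells, where clusters differ in phase (91.3% and 89.7% of the Smoc1/Adamts18 cells were in G1). That cluster held only 2 and 3 G2M cells, so phase and cluster were not told apart for Fgfr1. Within the Krtap8-1/Ednra cluster Fgfr2 was at 1062 and 1141 CPM in G1 and at 830 and 895 CPM in G2M cells, separate in both libraries, with 659 and 841 CPM in S cells. Over all epithelial cells Fgfr2 did not follow this order, with 530 and 566 CPM in G1, 471 and 517 CPM in S and 540 and 592 CPM in G2M cells.

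As a description of likeness, the Pearson correlation of log2(CPM + 1) was taken over 40 points, 20 clusters in 2 libraries that share the clusters and the depth of each library, among 12086 genes with at least 500 UMIs. Fgf5 was most like Olfml2b (0.94), Cfap299 (0.94) and Slpi (0.92). Fgf20 was less like any gene, with Tnip1 (0.68), Cux2 (0.67) and Cacna1g (0.66) first. Fgfr1 was most like Trp73 (0.96), Gm16159 (0.96) and Ssbp2 (0.96), where Gm16159 overlaps Fgfr1 on the opposite strand and its count is uncertain. Fgfr2 was most like Lrrc45 (0.87), Ptn (0.86) and Kitl (0.86), and Fgfr3 most like Lgmn (0.88), Mtch1 (0.86) and Plp2 (0.86).

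The clusters depend on the start of the algorithm, so the first clusters were looked up in 10 partitions. The cluster with most Fgf5 held Olfml2b among its leading genes in 10 of 10 partitions in both libraries, at 30.5 to 50.5 CPM and 25.6 to 36.1 CPM. Olfml2b is also the gene most like Fgf5 in these data, so its presence there is no independent check. In the partitions of 5th and 9th highest modularity the leading genes of that cluster held Spon1 and not Acta2. The border with the Spon1/Krt8 cluster thus depends on the start. The cluster with most Fgfr2 held Krtap8-1 in 10 of 10, and that with most Fgfr1 held Smoc1 in 8 of 10, in both libraries. Over the 10 partitions the highest Fgfr1 level ran from 448 to 722 CPM and from 508 to 723 CPM. The 720 and 707 CPM given above thus lie near the upper end. For Fgfr3 the Slit3 cluster was first in 10 of 10 in the PADI4 WT library and the Krt35 (Cx-like) cluster in 10 of 10 in the library labelled PADI4 cKO. For Fgf20 the Frem1 cluster was first in 8 and 7 of 10.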

How the data were processed

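Epithelial cells of P1 back skin were profiled with Chromium 3′ v3.1 as 2 libraries, PADI4 WT and PADI4 cKO, grouped by the genotype label. Cell Ranger 7.1.0 and mm10, per the submitters' processing notes, gave the deposited matrices, which are unnormalized UMI counts of each gene in each droplet. Whether intronic or antisense reads were counted is not given in the sources used here. The CellBender and Harmony steps of the study were not run. The libraries held 143938990 and 143945294 UMIs in all barcodes.

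A droplet was kept as a cell where its UMIs lay between 2000 and 60000, its genes between 1000 and 8000 and its ribosomal share between the 5th and 99th percentile, with no more than 20% of UMIs mitochondrial and 1% from hemoglobin. The log of counts scaled to 10000 per cell, 1000 variable genes without Fgf and Fgfr genes, regression on S and G2M scores, 50 components and 15 neighbors fed Leiden clustering at resolution 1.0 (scanpy 1.11.5, igraph 0.11.9). It was started 10 times, with 100 iterations each, and the partition of highest modularity was used. The 10 partitions had modularities of 0.820 to 0.823, 23 to 26 clusters and an adjusted Rand index of 0.566 to 0.731 with the one used. A class name needed at least 3 markers 1.5-fold above other cells and at 5 CPM or more, and more than any other list. The marker Krt85 was not used here. Doublets were scored with Scrublet and kept. Its automatic call marked 0.0248% of PADI4 WT cells, so both libraries were called at 0.204, the threshold found in the PADI4 cKO library, a choice made after seeing the data, which marked 3.23% and 4.06%.

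Levels are sums of UMIs per 1000000 with exact Poisson intervals, shares of cells have exact Clopper-Pearson intervals, and a count of 0 is given with the share that 3 cells would make. Log2 ratios are of CPM with 0.5 UMI added to each sum, with exact conditional binomial intervals, for genes with at least 100 UMIs over both libraries. PCR and droplet effects are not in these intervals. Of the listed gene IDs, 32235 of 32285 matched GENCODE M21 (GRCm38), which gave the coordinates. Named genes are the 7 members, the up to 4 genes with most UMIs in each pathway list, list genes past 0.5 in 1 direction in at least 3 clusters, the 3 genes most like each member, Padi4 and sex-linked genes. The members and lists were chosen with earlier results of these data known. The ratio script was tested on simulated data. Other cell limits, resolutions, count minimums, thinning, subtraction of empty droplets, removal of doublets, Xist-only cells and marker-gated classes were tried.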

Additional observations from a re-analysis of the deposited data

How the results depend on the processing

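No paired analysis was possible because the labels carry no replicate numbers and each genotype is 1 library. Of 177 values computed under alternatives, 134 moved by less than their counting interval or 1.5 times and 43 moved further. A reversal was counted only where the main log2 ratio was past 0.5 in size, and 0 were found. Changes of sign in smaller ratios, such as that of Fgfr3 in Xist-only cells, were not counted as reversed. The first cluster stayed first in 36 of 37 level settings, except for Fgfr3 after thinning. The 37 leave out the settings named below in which no cluster matched the one used, most of them for Fgfr1. The level of Fgf5 in the Tagln/Acta2 cluster (mean of both libraries, 43.3 CPM) was 32.8 with a lower limit of 1000 UMIs per cell, 30.5 with 4000, 36.6 without the cell cycle correction and 48.1 with empty droplets subtracted. Fgf20 in the LPC-like Sp5/Frem1 cells (2.20 CPM) was 1.46 at 1000 UMIs and 1.43 at resolution 0.5, and in the LPC-like class (0.867 CPM) 1.64 in classes from marker UMIs. Fgfr1 in the Smoc1/Adamts18 cells (714 CPM) was 636 at 4000 UMIs, 670 thinned and 781 with empty droplets subtracted. Fgfr2 in the Krtap8-1/Ednra cells (909 CPM) was 1227 at 1000 UMIs, 881 at resolution 2.0, 942 without the cell cycle correction, 936 thinned and 966 with empty droplets subtracted. Fgfr3 in the Cx-like cells (93.4 CPM) was 82.5 thinned. The epithelial log2 ratio of Fgf5 (−0.78) was −0.52 with an equal mix of classes, and in Xist-only cells the ratios were 0.16 for Fgfr1 (0.10), 0.13 for Fgfr2 (0.11) and −0.12 for Fgfr3 (0.02). The causes of these moves were not tested.

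Of the pairs past 0.5, the members' 2 became 1 at a minimum of 500 UMIs and 5 in Xist-only cells. The ligands' 2 became 6 at 50 UMIs, 1 at 500 and 1 in Xist-only cells, and the receptors' 2 became 4, 1 and 5. The binding list's 17 became 27 at 50 UMIs and 5 at 500, the adaptors' 0 became 1 at 50 UMIs and 7 in Xist-only cells, the feedback list's 19 became 1 and the response list's 29 became 18 at 500 UMIs, where fewer pairs are compared. Contrasts of Fgf5-positive with other cells that moved after thinning were Fgfr1 in the PADI4 WT library, from 0.16 to −0.49, and in the library labelled PADI4 cKO Fgfr2, from −0.25 to 0.58, and Fgfr3, from −0.09 to 1.54. No cluster matched the one used, so that no value was computed, for Fgf5 at resolution 0.5, Fgf20 without the cell cycle correction, Fgfr2 at resolution 0.5, and Fgfr1 at 1000 UMIs, at resolutions 0.5 and 2.0, without the cell cycle correction and in the partition of next highest modularity, the last an alternative chosen after seeing the data. Depth limits Fgf18, Fgf20 and Fgf22, with at most 69 UMIs in a library, to no resolved order of clusters.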
